A study of Mus musculus with 7 samples.

Results

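The genes described here are 9 markers of neurogliaform cells and other layer 1 interneurons of the cortex, Ndnf, Lamp5, Reln, Cxcl14, Id2, Adarb2, Htr3a, Calb2 and Kit. They were found by their symbols among the 47729 genes of the count table, and each symbol matched a single Ensembl gene. The study compared forebrain RNA at postnatal day 15 (P15) between Lhx6+/- mice (control, 4 samples) and Lhx6-/- mice (mutant, 3 samples) of the strain F1(C57BL/6 X 129Sv), to ask how the forebrain transcriptome changes when this gene is lost. Lhx6 encodes a LIM-homeodomain transcription factor of CIs (cortical interneurons) born in the medial ganglionic eminence (MGE), and controls also carried a null allele. The null allele was constitutive, so the gene was lost from every cell that normally uses it. Each sample pooled the RNA of 2 animals, and the spread between libraries given below is a spread between pools. Control pools held animals of a single sex and 2 of the 3 mutant pools held both sexes. The count columns name a genotype and a library number, so neither sex nor RNA quality could be tied to a library.

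Neurogliaform cells are small, densely branched interneurons that release GABA diffusely onto their neighbours, and they are the main inhibitory cells of layer 1 together with canopy and VIP-type cells. Most of them come from the caudal ganglionic eminence (CGE) or the preoptic area, not from the Lhx6-dependent lineage, although a deep-layer and hippocampal group of Lamp5 cells does carry Lhx6. None of the 9 genes is exclusive to these cells in a whole forebrain. Reln is also made by Cajal-Retzius cells, Calb2 by VIP interneurons and several subcortical nuclei, Kit by other neurons, and Id2 by many neurons and glia. In bulk RNA, a smaller number of cells of a type and less RNA per cell cannot be told apart.

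Libraries held between 32556304 and 38069151 expected counts, and all 9 genes passed the filter of at least 10 counts in at least 3 libraries. Lhx6 itself had 475.9 to 615.2 normalized counts in controls and 70.1 to 76.6 in mutants, so the libraries carried the difference their labels state. The first principal component of the libraries separated library numbers 2, 3 and 5 from 10 to 13 and the second separated the genotypes. Both runs of numbers hold both genotypes, and differences are therefore also given within each run.

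Of the 9 markers, 3 rose in mutants and 0 fell in the quasi-likelihood test of edgeR, with a threshold of 0.05 on the p-value adjusted over all tested genes (Benjamini-Hochberg). The 3 that rose were Ndnf, Adarb2 and Kit. Among all 19684 tested genes 2.97% were called higher by the same rule and 1.87% lower. At an unadjusted p-value of 0.05, 4 of the 9 passed, the fourth being Htr3a, and all 4 were higher in mutants; 18.2% of all tested genes passed this limit, in either direction. DESeq2 called 3 members higher and 0 lower (5.09% and 3.70% of all tested genes), and limma-voom called 2 higher and 0 lower (3.09% and 1.80%). With the run of library numbers added to the edgeR model, 3 members were again higher and 0 lower (6.16% and 5.04%). With mutant library 12 or mutant library 13 left out, edgeR called 0 members in either direction. The libraries of the genotypes did not overlap for 4 of the 9 genes, as for 19.7% of all tested genes. The median log2 fold change of the 9 was 0.11, beside -0.01 over all tested genes.

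**Figure D1:**
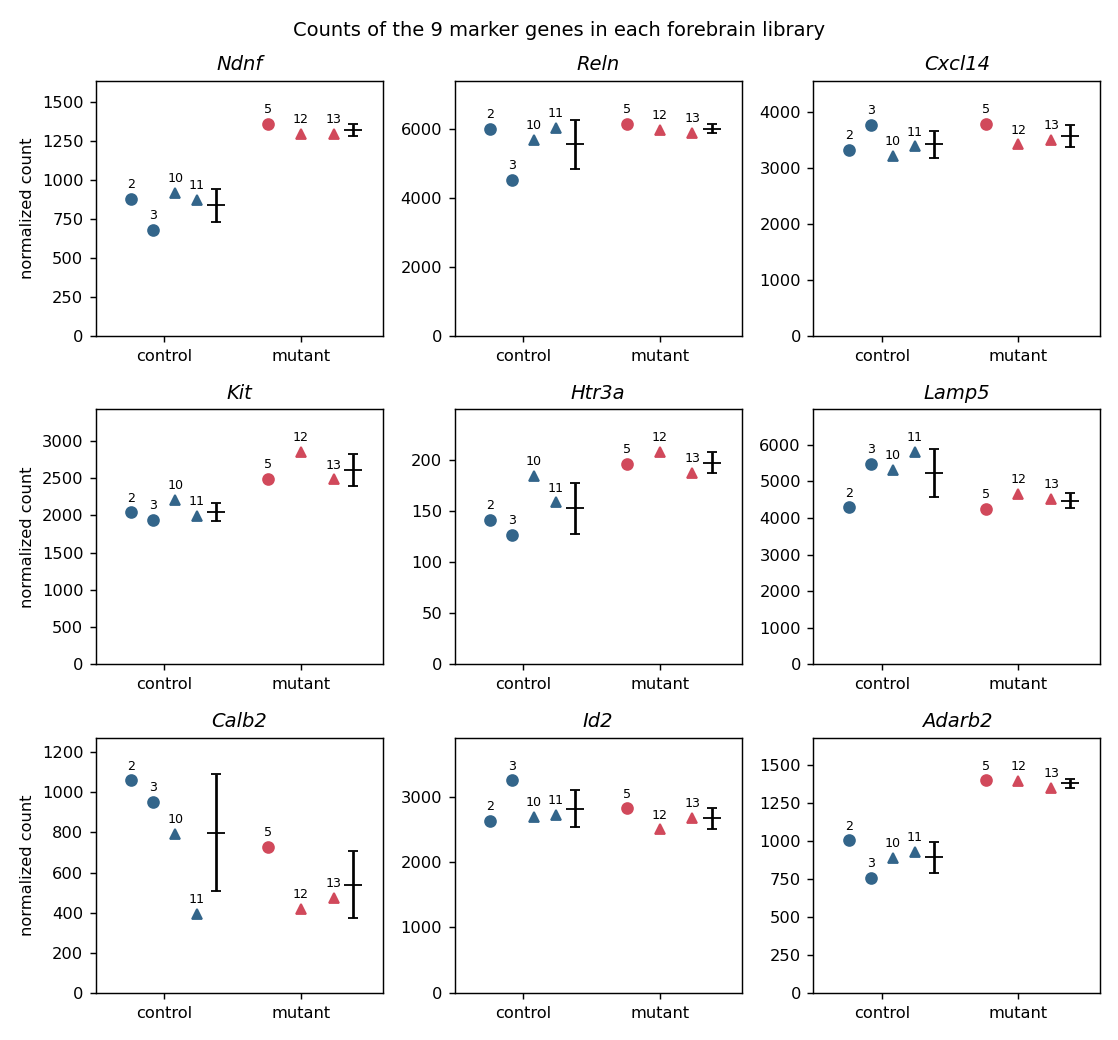
Normalized counts of each of the 9 markers (vertical axes, from 0) in the control and mutant forebrain libraries, with library numbers above the points; circles are libraries 2, 3 and 5, triangles libraries 10 to 13, and the black bars give the mean and SD of a genotype. All mutant points lie above all control points for Ndnf, Adarb2, Kit and Htr3a, while Calb2 spreads from 394.4 to 1059 among the controls alone.

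Ndnf encodes neuron-derived neurotrophic factor, a secreted glycoprotein, and is the gene most used to reach layer 1 interneurons genetically. It lies at chr6:65671590-65712326 (plus strand, GRCm38, as for all positions here) with 10114 bases of exon. Controls (libraries 2, 3, 10 and 11, in this order here and below) held 880.6, 682.9, 920.1 and 874.1 normalized counts, whereas mutants (libraries 5, 12 and 13) held 1364, 1297 and 1299. The mutants thus lay close together and well above every control, of which library 3 was the lowest. The log2 fold change was 0.65 (SE 0.109, 95% interval 0.41 to 0.90, adjusted p = 0.0127 from edgeR), a 1.57-fold increase. The difference was 0.81 when only libraries 2, 3 and 5 were fitted and 0.54 in a fit of libraries 10 to 13. The call was lost, at a similar fold change, when mutant library 12 (adjusted p = 0.0548 from edgeR) or mutant library 13 (adjusted p = 0.0665 from edgeR) was left out.

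Adarb2 encodes ADAR3, a brain-specific relative of the RNA-editing adenosine deaminases without known catalytic activity, and it marks CGE-derived CIs as a class. It lies at chr13:8202866-8768747 on the plus strand. The controls held 1005, 760.2, 889.4 and 926.9 normalized counts and the mutants 1400, 1395 and 1349. As for Ndnf, control library 3 was the lowest and the genotypes were far from overlapping. Adarb2 was higher by a log2 fold change of 0.63 (SE 0.100, 95% interval 0.40 to 0.85, adjusted p = 0.0109 from edgeR), with 0.68 and 0.61 within the 2 runs of library numbers. Adarb2 also lost its call without mutant library 12 (adjusted p = 0.0534 from edgeR) or without mutant library 13 (adjusted p = 0.0554 from edgeR). The catalytically active relatives Adar and Adarb1 were not called, with log2 fold changes of -0.04 (95% interval -0.28 to 0.20) and 0.05 (95% interval -0.22 to 0.31). For Adar, 16.8% of the exon bases overlap Chrnb2 on the other strand, and its count is less certain.

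The 250 bases before the start of Adarb2 and of Reln are shown because Adarb2 rose while Reln, a classical marker of layer 1, was not called. Promoter sequences came from RefSeq (GRCm38.p6), which held 8 starts for 6 of the 9 genes. They read 5′ to 3′ on the strand of the gene, Adarb2 from chr13:8202616-8202865 (plus strand) and Reln from chr5:22344706-22344955 (minus strand), with the letters TAATTA, a core bound by many homeodomain proteins, in capitals:
Adarb2: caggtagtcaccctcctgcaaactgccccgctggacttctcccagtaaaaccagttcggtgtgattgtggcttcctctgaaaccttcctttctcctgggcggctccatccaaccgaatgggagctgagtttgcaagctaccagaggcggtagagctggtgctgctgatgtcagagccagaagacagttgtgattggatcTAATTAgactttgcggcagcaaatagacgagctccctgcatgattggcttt
Reln: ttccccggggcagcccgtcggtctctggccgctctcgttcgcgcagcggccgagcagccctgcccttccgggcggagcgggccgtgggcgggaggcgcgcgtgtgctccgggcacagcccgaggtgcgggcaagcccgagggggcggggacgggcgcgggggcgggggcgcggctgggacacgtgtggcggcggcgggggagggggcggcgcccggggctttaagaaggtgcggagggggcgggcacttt
The Adarb2 window was 52.8% G and C and the Reln window 80.0%. TAATTA, which reads the same on both strands, was found in 1 of the 8 windows, that of Adarb2, with 45 bases between it and the start, and in 4.90% of 27025 windows, 1 for each gene symbol in the table. CANNTG, the E-box to which E proteins bind, was found in 5 of the 8 windows, those of Adarb2 and Reln among them, against 66.0% of all windows. TGACGTCA, the full cAMP response element, was in 0 of the 8 and in 1.62% of all. Lamp5 and Kit each have more than 1 window among the 8, whereas all windows hold 1 for each symbol. The counts and percentages are therefore on unlike units. In the Adarb2 window TAATTA and CANNTG do not overlap. Such matches describe the letters in these windows and say nothing of whether a factor binds there.

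Kit encodes the receptor tyrosine kinase for stem cell factor, and in the cortex its transcript is enriched in layer 1 and other CIs. It lies at chr5:75574916-75656722 on the plus strand. Its normalized count was 2037, 1940, 2204 and 1992 in the controls, compared with 2489, 2848 and 2480 in the mutants. Controls were tight (coefficient of variation 5.59%), and the lowest mutant stood above the highest control. Kit was higher by a log2 fold change of 0.35 (SE 0.0823, 95% interval 0.16 to 0.54, adjusted p = 0.0487 from edgeR), and the increase was 0.33 and 0.36 within the 2 runs. This adjusted p lay just under the threshold. It passed the threshold in none of the 7 fits that left out a library, where it ran from 0.0693 without control library 3 to 0.191 without mutant library 12, and it was 0.00514 with DESeq2. Kitl, the gene of the KIT ligand, had 1261 to 1973 normalized counts in controls and 1099 to 1560 in mutants, a log2 fold change of -0.21 (95% interval -0.61 to 0.19, adjusted p = 0.608 from edgeR). With the run of library numbers in the model Kitl was called lower (-0.29, adjusted p = 0.0448 from edgeR). Mast cells, which also depend on KIT, left almost no trace: the 4 genes Cpa3, Mcpt4, Tpsb2 and Cma1 together summed to at most 14.4 normalized counts in any library.

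Htr3a encodes the A subunit of the serotonin-gated 5-HT3 channel, present in nearly all CGE-derived CIs, and was the least abundant member. It lies at chr9:48899214-48911099 on the minus strand. The controls held 141.5, 126.5, 184.2 and 158.6 normalized counts and the mutants 196.4, 208.0 and 187.5. The genotypes did not overlap, but the highest control (library 10) and the lowest mutant (library 13) were almost equal. The log2 fold change of 0.37 (SE 0.153, 95% interval 0.02 to 0.72) did not pass the threshold (adjusted p = 0.245 from edgeR), and in the 2 runs of library numbers it was 0.56 (libraries 2, 3 and 5) and 0.22 (libraries 10 to 13). Htr3b, the partner subunit, was at 0 to 4.02 normalized counts in every library and was not tested.

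Reln encodes reelin, the large secreted protein that guides neuronal layering before birth and is made by layer 1 interneurons afterwards. It lies at chr5:21884454-22344702 (minus strand) and is the member with the most exon sequence, 23738 bases, of which 1.04% overlap another gene. The controls held 6002, 4525, 5697 and 6048 normalized counts, and the mutants 6168, 5982 and 5900. Apart from control library 3, which was low, the genotypes lay in the same range. With all libraries the log2 fold change was 0.11 (SE 0.109, 95% interval -0.14 to 0.36, adjusted p = 0.678 from edgeR) and was 0.02 without control library 3 (adjusted p = 0.903 from edgeR). The interval excludes an increase as large as the estimate of Ndnf or Adarb2. The difference between genes was not itself tested.

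Among 7 genes that receive the reelin signal, 0 were called in either direction by edgeR or limma-voom. At an unadjusted p-value of 0.05, 3 passed (18.2% of all tested genes did), and DESeq2 called 1 higher, Lrp8 (5.09% of all). The receptor gene Lrp8 (ApoER2) had the largest difference, with 3650 to 5001 normalized counts in controls and 4830 to 6540 in mutants (log2 fold change 0.46, adjusted p = 0.116 from edgeR). Vldlr, the other receptor, ran the other way, from 2960 to 3625 in controls against 2439 to 2918 in mutants (log2 fold change -0.29, adjusted p = 0.166 from edgeR). Dab1, the adaptor that both receptors engage, was at -0.02, the kinase gene Fyn at -0.01, the adaptors Crk and Crkl at -0.06 and -0.02, and the exchange factor Rapgef1 at 0.25 on the same scale. The median of the 7 was -0.02, with 2 positive and 5 negative, beside -0.01 over all tested genes. With the run of library numbers in the model, both receptors were called, Lrp8 higher (0.51, adjusted p = 0.0169 from edgeR) and Vldlr lower (-0.33, adjusted p = 0.00936 from edgeR).

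Lamp5 encodes a lysosome-associated membrane protein of neurons that names the whole class of neurogliaform cells in transcriptomic atlases. It is also transcribed in some excitatory neurons. It lies at chr2:136052239-136069917 on the plus strand. Normalized counts were 4289, 5466, 5320 and 5801 in the controls and 4245, 4651 and 4531 in the mutants. Lamp5 was thus among the most abundant members, and control library 2 lay within the mutant range while the other controls lay above it. Lamp5 had a log2 fold change of -0.22 (SE 0.110, 95% interval -0.47 to 0.03, adjusted p = 0.339 from edgeR). Within libraries 10 to 13 it was -0.27 (adjusted p = 0.0501 from edgeR), and within libraries 2, 3 and 5 it was -0.19. An increase of the size of that in Ndnf lies outside the interval. The broadly used relatives Lamp1 and Lamp2 had log2 fold changes of 0.11 and 0.22 and were not called, Lamp3 was at 0 to 3.01 normalized counts, and Cd68, the macrophage member of the family, rose from 205.9 to 338.5 in controls to 468.4 to 581.4 in mutants (log2 fold change 0.97, adjusted p = 0.0152 from edgeR). The call of Cd68 was lost without mutant library 12 or mutant library 13, where the adjusted p reached 0.0827. Of 6 microglia markers, 1 had a positive and 5 a negative log2 fold change, with 0 called. With the run of library numbers in the model, 1 was called lower. The microglia markers summed to 9934 to 10350 normalized counts in controls and 8336 to 9767 in mutants. The cells behind the rise of Cd68 were not tested.

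Cxcl14 encodes a chemokine of CGE-derived neurogliaform and CCK cells and lies at chr13:56288647-56296551 on the minus strand. The controls held 3330, 3770, 3216 and 3391 normalized counts and the mutants 3801, 3427 and 3508. The genotypes overlapped, and within each of them the higher values belonged to libraries 3 and 5. Its log2 fold change was 0.06 (SE 0.0825, 95% interval -0.13 to 0.25, adjusted p = 0.773 from edgeR).

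Id2 encodes an inhibitor of DNA binding, a helix-loop-helix protein without a DNA-binding region that pairs with E proteins and keeps them from DNA. It lies at chr12:25093801-25096092 on the minus strand. Normalized counts were 2622, 3246, 2684 and 2717 in the controls and 2819, 2499 and 2680 in the mutants. Control library 3 stood apart and the other 6 libraries lay close together. Id2 had a log2 fold change of -0.08 (SE 0.0947, 95% interval -0.30 to 0.14, adjusted p = 0.745 from edgeR), and -0.005 without control library 3 (adjusted p = 0.985 from edgeR).

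The relatives of Id2 did not share this pattern, since 2 of 3 rose. Id3 went from 804.4 to 984.8 normalized counts in controls to 1792 to 2085 in mutants, a log2 fold change of 1.16 (SE 0.0964, adjusted p = 0.000659 from edgeR). Id1 went from 355.0 to 394.4 to between 554.9 and 654.3, a log2 fold change of 0.69 (SE 0.102, adjusted p = 0.00771 from edgeR). Both calls held in all 7 fits that left out a library. Id1 and Id3 are induced by BMP signals and in the brain are strong in endothelium and astrocytes. Id4 was at 0.28 (adjusted p = 0.310 from edgeR), and the E protein genes Tcf3, Tcf4 and Tcf12 were at -0.02, -0.02 and 0.16 on the log2 scale and were not called. In the same libraries, 6 of 6 endothelial markers had positive log2 fold changes with 0 called. At an unadjusted p of 0.05, 4 passed (18.2% of all tested genes did). DESeq2 called 2 higher (5.09% of all tested genes), limma-voom 0 (3.09%), and edgeR with the run of library numbers in the model 4 (6.16%). The sum of these markers ran from 6143 to 8306 normalized counts in controls and from 8018 to 9696 in mutants. Of the 6 astrocyte markers all were positive and 1, Gfap, was called (log2 fold change 1.95), beside 2.97% of all tested genes called higher. DESeq2 called 3 higher (5.09% of all), and edgeR with the run of library numbers in the model 3 (6.16%). The astrocyte sums were 184200 to 276100 in controls and 307200 to 360400 in mutants. The part of these cells in the difference of Id1 and Id3 was not tested.

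Calb2 encodes calretinin, an EF-hand calcium buffer of VIP-type and some layer 1 interneurons, and lies at chr8:110142539-110168206 on the minus strand. It was the most variable member. Normalized counts were 1059, 950.0, 791.5 and 394.4 in the controls and 729.0, 417.1 and 472.5 in the mutants. Control library 11 lay below every mutant, and mutant library 5 lay near the controls. The coefficient of variation was 36.5% in controls and 30.8% in mutants, whereas the other 8 genes stayed between 5.59% and 16.2% in controls and between 2.04% and 8.07% in mutants. The log2 fold change was -0.57 (SE 0.326, 95% interval -1.31 to 0.18, adjusted p = 0.424 from edgeR), and without control library 11 it was -0.79 (adjusted p = 0.110 from edgeR). Mutant levels from 0.404 to 1.13 of the control level lie within the interval.

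Calb2 is strong in parts of the thalamus, hypothalamus, olfactory bulb and amygdala, and its libraries were set beside markers of some of these. Nr2f2 (COUP-TFII), a transcription factor of CGE-derived CIs and of the amygdala, had its lowest control value in the same library, 565.1 in library 11 against 885.6 to 954.0 in the others, and ran from 526.8 to 722.3 in mutants. The summed level of the 8 markers of thalamus and hypothalamus was also lowest among controls in library 11, at 1723 against 1785 to 2339, and was 1714 to 1910 in mutants; Hcrt, Pmch, Oxt and Gbx2 were near 0. Of these 8, 4 were tested and 0 called (1 at an unadjusted p of 0.05; 0 by DESeq2 and limma-voom). The 5 olfactory bulb markers summed to 616.9 in library 11, the highest of the controls, and to 613.1 to 898.4 in mutants. The high mutant sums came from Th, which rose (log2 fold change 2.83), while Cdhr1 fell (-0.79); without Th the sums were 421.8 to 570.3 in controls, with 554.9 in library 11, and 320.9 to 428.9 in mutants. Th kept its call in all 7 fits that left out a library, and Cdhr1 in 1, with an adjusted p of up to 0.123 without mutant library 13. The part of dissection in the spread of Calb2 was not tested. Of the other EF-hand buffers, Calb1 fell (log2 fold change -0.92, adjusted p = 0.0371 from edgeR), and Pvalb, the buffer of an MGE-derived class, fell by 3.05 on the log2 scale. Pvalb kept its call in all 7 fits that left out a library and Calb1 in 1 of them, the fit without control library 2 (adjusted p up to 0.105 without mutant library 13).

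**Figure D2:**
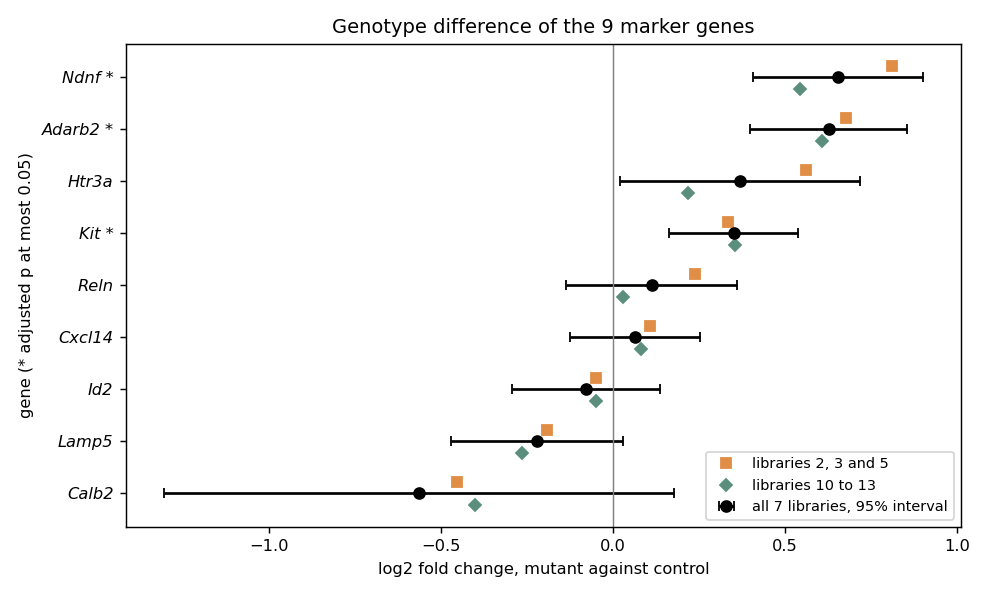
Log2 fold change of each marker between mutant and control libraries (horizontal axis); black points and bars are the edgeR estimate over all 7 libraries with its 95% interval, squares the estimate within libraries 2, 3 and 5 and diamonds that within libraries 10 to 13. Every marker keeps its direction in both runs, and the intervals of Ndnf, Adarb2, Kit and Htr3a lie above 0 while that of Calb2 is the widest.

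Levels were compared between genes per length, as counts per kilobase of exon after scaling to CPM (effective library sizes). Id2 (62.3 ± 6.37, SD, n = 4 control pools), Cxcl14 (52.8 ± 3.70) and Lamp5 (49.9 ± 6.24) formed the upper group. In controls the libraries of Id2 and Cxcl14 overlapped, and so did those of Cxcl14 and Lamp5. In mutants Lamp5 (42.8 ± 2.00, SD, n = 3 pools) lay below Cxcl14 (55.1 ± 3.03) in every library. Calb2 followed, at 15.7 ± 5.72 in controls and 10.6 ± 3.27 in mutants. Reln (6.58 ± 0.842) and Kit (6.43 ± 0.359) were next and overlapped in controls, and in mutants their order was turned, with Kit (8.21 ± 0.661) above Reln (7.11 ± 0.163) in every library. The lowest were Adarb2 (2.60 ± 0.296), Ndnf (2.33 ± 0.295) and Htr3a (2.06 ± 0.334), whose ranges over the control libraries overlapped, although each control library gave them in this order. The 3 genes that rose were therefore all in the lower part of the range, together with Htr3a and Reln, which were not called. In mutants the ranges of the lowest 3 genes no longer overlapped, at 4.01 ± 0.0815 for Adarb2, 3.66 ± 0.106 for Ndnf and 2.66 ± 0.139 for Htr3a.

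**Figure D3:**
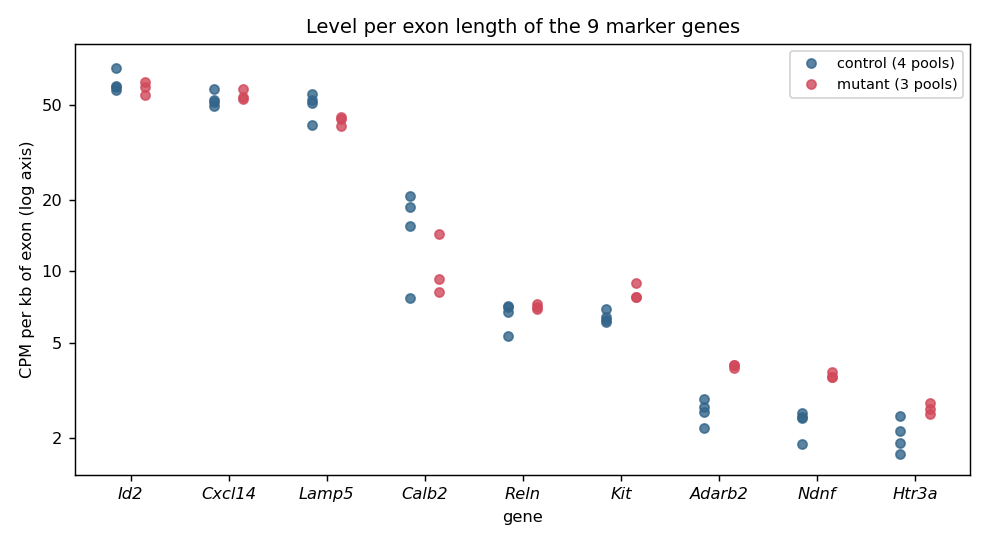
Level of each marker in CPM per kilobase of exon (vertical log axis) in every control (blue) and mutant (red) library, ordered by the control mean. Id2, Cxcl14 and Lamp5 sit between 40.6 and 71.7, and the remaining markers between 1.71 and 20.8.

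Outside the 9 markers, 14 further genes of neurogliaform and layer 1 cells were examined, of which 2 rose and 2 fell. Among all tested genes, 2.97% were called higher and 1.87% lower. Npy, the neuropeptide of most neurogliaform cells, rose from 2233 to 2745 normalized counts in controls to 6799 to 8359 in mutants, a log2 fold change of 1.69 (adjusted p = 0.000226 from edgeR). Npy is also made by somatostatin cells of the MGE lineage. Lsp1, a lymphocyte-specific actin-binding protein gene that also marks a subset of Lamp5 cells, rose from between 105.5 and 179.8 to between 299.2 and 387.0, a log2 fold change of 1.37 (SE 0.201, adjusted p = 0.00752 from edgeR). The genotypes of both were far apart, and both calls held in all 7 fits that left out a library.

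Nos1, the gene of neuronal nitric oxide synthase, is used by neurogliaform cells and, at higher levels, by long-range MGE-derived cells. It fell from 2182, 1363, 2016 and 2010 normalized counts in the controls to 1164, 1156 and 1171 in the mutants, a log2 fold change of -0.70 (SE 0.149, adjusted p = 0.0337 from edgeR). Npy2r, a presynaptic receptor for NPY, fell from between 232.0 and 417.4 to between 113.0 and 170.8 (log2 fold change -1.07, adjusted p = 0.0343 from edgeR). Both were below every control in every mutant library. Nos1 kept its call only without control library 3 among the 7 fits that left out a library, with an adjusted p of up to 0.135 without mutant library 13, and Npy2r likewise, with up to 0.119 without the same library.

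The other 10 genes of this group did not pass with all libraries in the model without covariate. Ntn1 (0.46, adjusted p = 0.0534), Sv2c (0.55, adjusted p = 0.0573), Dock5 (0.71, adjusted p = 0.0615) and Egln3 (-0.50, adjusted p = 0.0712, all from edgeR) came closest. Pax6 and Chrna7 were at 0.38 and 0.40 without overlap between genotypes, Krt73 at 0.36, Car4 at -0.06, Nr2f2 at -0.41 and Tmem182 at -0.45. The median of the 14 was 0.37, with 8 positive and 6 negative, and 9 had an unadjusted p of 0.05 or less, as 18.2% of all tested genes did. DESeq2 called 5 higher and 3 lower (5.09% and 3.70% of all tested genes) and limma-voom 4 higher and 2 lower (3.09% and 1.80%). With the run of library numbers in the model 6 were called higher and 3 lower (6.16% and 5.04% of all tested genes). The added genes were Ntn1 (adjusted p = 0.0220), Sv2c (0.0304), Dock5 (0.0174), Pax6 (0.0404) and Egln3 (0.0301, all adjusted p from edgeR).

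**Figure D4:**
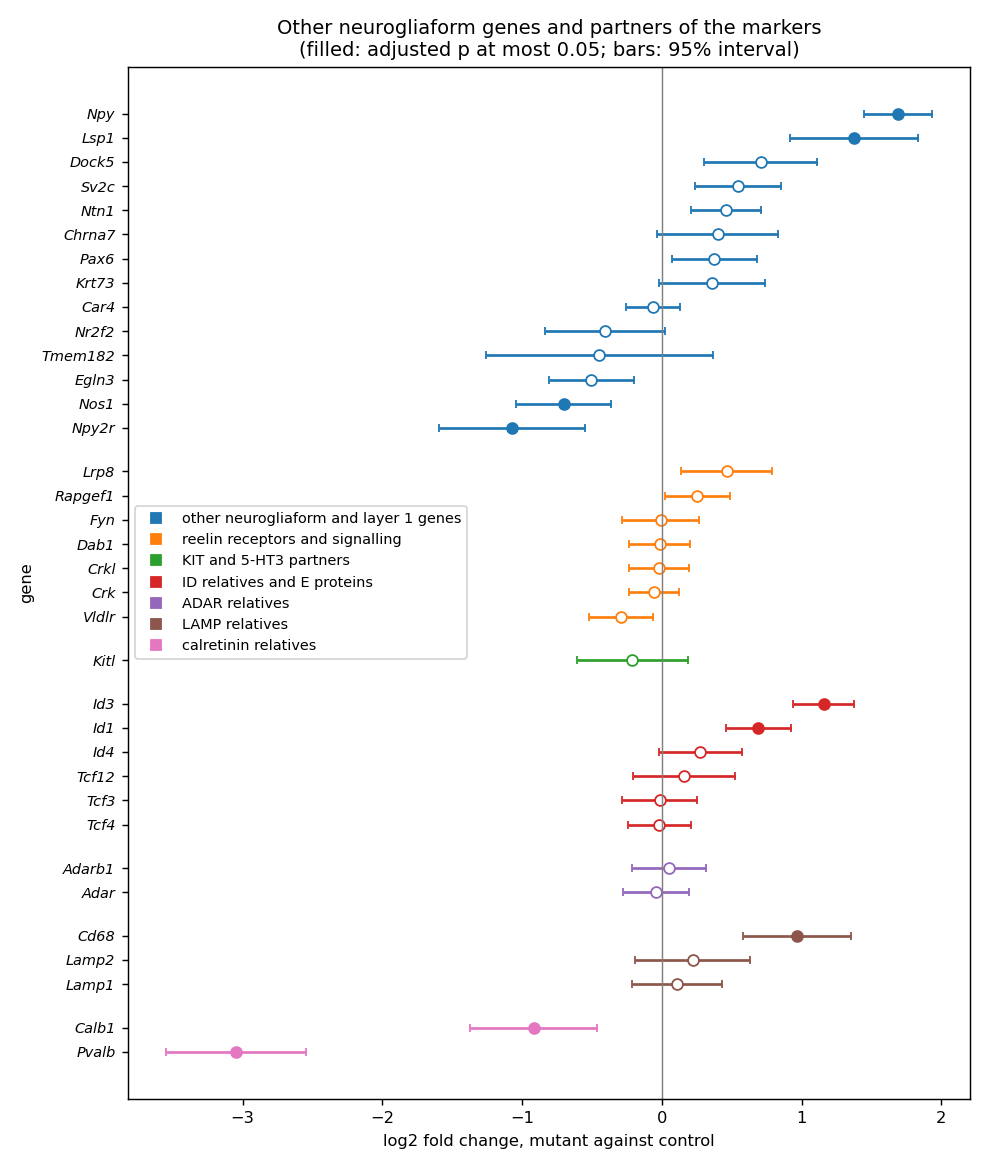
Log2 fold change (horizontal axis) with its 95% interval for the tested genes of 7 lists, coloured by list: further neurogliaform genes, reelin signalling, partners of KIT, relatives of Id2, ADAR, LAMP and EF-hand genes; filled points passed an adjusted p of 0.05. Npy, Lsp1, Id1, Id3 and Cd68 are the filled points above 0 and Npy2r, Nos1, Calb1 and Pvalb those below.

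Other interneuron markers were read in the same fit. Over all tested genes edgeR called 2.97% higher and 1.87% lower. In the list of 9 VIP and CCK markers, 3 rose (Vip 0.94, Cck 0.87 and Cnr1 0.87 on the log2 scale) and 0 fell. Sp8, Prox1, Npas1, Tac2, Slc17a8 and Sncg were not called. Of the 9, 6 had an unadjusted p of 0.05 or less, as 18.2% of all tested genes did. DESeq2 and limma-voom also called 3 higher and 0 lower. Of all tested genes, DESeq2 called 5.09% higher and 3.70% lower, and limma-voom 3.09% and 1.80%. Vip and Cnr1 lost their calls without mutant library 12 or mutant library 13 (adjusted p up to 0.0804 and 0.0722 from edgeR). Cck and Cnr1 are transcribed in excitatory neurons too. Of 12 markers of MGE-derived CIs, 7 fell, led by Sst (-3.19 on the log2 scale), Pvalb and Lhx6, and 2 rose, Tac1 and Crhbp. The calls of Sst, Pvalb, Lhx6 and Crhbp held in all 7 fits that left out a library, and that of Tac1 in 3. The GABA-synthesis genes Gad1 and Gad2 were at 0.50 (95% interval 0.17 to 0.83, adjusted p = 0.0951 from edgeR) and 0.48 (95% interval 0.17 to 0.78, adjusted p = 0.0862 from edgeR), so that the estimates for Ndnf, Adarb2 and Kit lay inside both intervals; DESeq2 called both higher and limma-voom neither, and with the run of library numbers in the model both were called higher (adjusted p = 0.00586 and 0.00768 from edgeR). The vesicular transporter Slc32a1 was at -0.04 (95% interval -0.40 to 0.32).

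Markers of cells that share the members' transcripts were low or not called in the model without covariate. For Cajal-Retzius cells, which hold Reln and Calb2, the 6 markers summed to 151.4 to 196.3 normalized counts in controls and 143.0 to 168.6 in mutants. Lhx1 and Lhx5 did not pass the filter on low counts, and of the other 4 (Trp73, Ebf2, Ebf3 and Nhlh2) 0 were called by edgeR, DESeq2 or limma-voom, with 2 at an unadjusted p of 0.05; with the run of library numbers in the model Ebf2 was called lower (-0.85, adjusted p = 0.0491 from edgeR). Trp73, the defining marker, had 43.2 to 65.8 counts in controls and 51.1 to 64.2 in mutants. Among 5 markers of cerebellum and hindbrain, Gabra6, Hoxb3 and Hoxb5 were at or near 0, with Gabra6 at 12.05 in control library 3. Pcp2 (53.22) and En2 (28.12) were also highest in that library, and neither was called. The 5 markers summed to 99.42 normalized counts in control library 3, against 26.86 to 47.16 in the other controls and 32.19 to 44.06 in mutants. Control library 3 was also the lowest control for Ndnf, Adarb2, Kit, Htr3a and Reln. The part of cerebellum and hindbrain in these low values was not tested. Without control library 3 the log2 fold changes were 0.57 for Ndnf, 0.56 for Adarb2 and 0.33 for Kit, and Ndnf and Adarb2 were still called.

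For each member the tested gene with the most similar log2 CPM over the 7 libraries was found, as a description only. All such correlations rest on the same 7 libraries and include the difference between genotypes and that between runs of library numbers. Kit was nearest to Dusp6, a phosphatase gene of the ERK pathway (Pearson's r 0.996), which had 2364 to 2807 normalized counts in controls and 3520 to 4593 in mutants. Adarb2 was nearest to Uvrag (0.995) and Ndnf to the predicted gene Gm12295 (0.996), which had at most 6.10 counts in controls and 63.1 to 71.8 in mutants. Reln was nearest to Setbp1 (0.998), Lamp5 to Phtf1 (0.990), Cxcl14 to Arfgap2 (0.990), Htr3a to Gm20633 (0.996) and Id2 to Gm37962 (0.989). Calb2 was nearest to Hap1 (0.985), which is rich in hypothalamus and amygdala and was also lowest in control library 11, at 2288 against 3141 to 3584 in the other controls. As many as 230 genes passed a correlation of 0.95 with Adarb2 and 12 with Lamp5, so a high value is common with so few libraries.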

How the data were processed

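Forebrain RNA of 7 pools (P15) was sequenced by the authors as 36-base single reads from a kit that does not mark strand. Per the submitters' processing notes, tools were cutadapt 1.9.1, Bowtie2 2.2.9 and RSEM 1.2.31 with the build GRCm38. Values deposited by the authors are expected counts from RSEM, not normalized. RSEM shares reads between genes with equal matches, and 0 to 2.27% of the 36-base words of each of the 9 genes occur in another gene. A deposited table of the authors' DESeq2 comparison served only to pair gene identifiers with symbols (its fold changes and p-values were not used), and a deposited annotation gave positions and exon lengths.

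Expected counts were rounded, and the 19684 genes that reached 10 counts in 3 or more libraries were scaled by TMM and tested with edgeR 4.0.16 (quasi-likelihood test, no covariate, Benjamini-Hochberg adjustment, threshold 0.05) in R 4.3.3. The model's 95% intervals are from the same fit. Normalized counts are counts over effective library size relative to the mean size. Columns were grouped by the genotype in their name, and 0 columns were left unused. Libraries of a genotype differed by more than sampling noise (chi-square per degree of freedom 10.2 to 72.6), so each counted as 1 replicate. A count of 0 is compatible with 3 counts at most (0.0788 to 0.0921 CPM), which covers counting error only. In data simulated for this comparison (19684 genes), edgeR recovered 65 of 100 genes changed by 1 and 91 of 100 changed by 2 on the log2 scale. Alternatives were DESeq2 1.42.0, limma-voom (limma 3.58.1), other scalings, filters and rounding, the runs of library numbers, and each library left out.

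The members, lists and alternatives were chosen with earlier results of these data known. Named genes are the 9 members, Lhx6, genes called in a list, all partners and relatives, defining markers of other cells, and for each member the gene with the highest Pearson's r; genes of the further neurogliaform list that were not called, the uncalled VIP, CCK and GABAergic markers and Cajal-Retzius markers were named after their values were seen. The result of 1 listed gene is not reported here.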

Additional observations from a re-analysis of the deposited data

Results flagged for a closer look

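Among the 4 control libraries, 2 of 44 genes examined had a sample farther from the others than Dixon's 95% limit allows, a limit that chance passes in about 1 in 20 groups. For Id2, control library 3 held 3246 normalized counts, and its gap to the next control was 0.848 of the range. For Lrp8, a reelin receptor gene, control library 2 held 5001 normalized counts, with a gap of 0.873 of the range. The mutant group, with 3 libraries, was too small for this check.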

How the results depend on the processing

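No paired analysis was possible because the count columns carry library numbers and no replicate numbers. All 9 members kept their direction under all 19 alternatives, and Reln, Cxcl14, Id2, Htr3a, Lamp5 and Calb2 were not called under any of them. Kit missed the threshold with limma-voom (log2 fold change 0.35, adjusted p = 0.0576), without the filter on low counts (0.35, adjusted p = 0.0606) and within libraries 2, 3 and 5 (0.33, adjusted p = 0.771), where Adarb2 (0.68, adjusted p = 0.123) was missed too and 1 member was called, Ndnf. These 3 libraries include a single mutant, which is assumed to vary like the controls. The causes were not tested, apart from the fewer libraries. When a library was left out, members called higher ran from 0 to 2 and members called lower stayed at 0, and log2 fold changes ran from 0.57 to 0.70 for Ndnf, from 0.56 to 0.69 for Adarb2 and from 0.28 to 0.39 for Kit. The number of called genes, 954 in all, was 1731 with DESeq2, 1734 with its beta prior, 2205 with the library-number run as covariate, 1922 within libraries 10 to 13, 397 within libraries 2, 3 and 5, and 302 (without mutant library 13) to 971 when a library was left out. The share of higher among called genes was 61.3%, and between 57.9% and 67.7% under other tools and scalings.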
